A study of Mus musculus with 6 samples.

Results

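The comparison set macrophages grown from mouse bone marrow and treated with FSL-1 plus nutlin-3a against macrophages kept in M-CSF. The arrays were chosen by their treatment labels alone: 2 arrays of FSL-1 + nutlin-3a cultures and 2 of M-CSF cultures, 4 of the 6 arrays of the series. The other 2 arrays held cultures with FSL-1 alone and are used where a difference between FSL-1 with and without nutlin-3a is tested. All cells came from C57Bl/6 bone marrow expanded for 5 days in M-CSF at 20 ng/ml. The resulting macrophages were replated for 6 days in M-CSF at 50 ng/ml, in FSL-1 at 20 ng/ml, or in FSL-1 at 20 ng/ml together with nutlin-3a at 10 µM. Whether FSL-1 cultures also received M-CSF is not stated in the labels, and no group received nutlin-3a without FSL-1. The groups of the main comparison therefore differ in both agents, and possibly in M-CSF, and their shares cannot be told apart there. Total RNA of sorted cells was amplified and hybridised to Affymetrix arrays, and the labels do not give the gate of that sort. In what follows, a replicate number after a group's name is that of the label. The labels do not say whether replicates were separate cultures or animals, so the p-values measure the spread between these arrays, which may be technical.

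M-CSF keeps macrophages alive, growing and dividing through its receptor Csf1r. FSL-1 is a synthetic lipopeptide with a pair of acyl chains that is sensed by TLR2 together with TLR6, which signal through NF-kB to cytokine, chemokine and defence genes, and the series' design describes the FSL-1 cells as multinucleated giant cells. Nutlin-3a occupies the pocket of Mdm2 that holds p53, so that p53 escapes degradation and switches on its target genes, among them the cell cycle inhibitor p21 (Cdkn1a). Through p21, p53 also lowers the genes of mitosis and cytokinesis, many of which carry a CCAAT box and a cell cycle homology region (CHR) just before their start site.

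Levels below are log2 expression values after RMA, and a fold is the difference of group means on that scale turned into a ratio. The 2 M-CSF arrays correlated at 0.9937 across 22180 genes, the 2 FSL-1 + nutlin-3a arrays at 0.9929, and arrays of different groups of the main comparison at 0.9788 to 0.9799. The median SD between replicates was 0.106 in M-CSF and 0.104 in FSL-1 + nutlin-3a (log2, n = 2 each). Of 14 measured macrophage markers, all lay above the median level of genes (5.51), and their mean level was 11.18 and 11.10 on the M-CSF arrays and 11.11 and 11.08 on the FSL-1 + nutlin-3a arrays, so the label macrophage matched the markers. Of the 14, Tyrobp and Spi1 rose and Fcgr1 and Cd14 fell. Leaving out any 1 of the 4 compared arrays gave 0 or 1 that rose and 1 or 2 that fell, and Tyrobp lost its call each time. Means over 15 neutrophil, 11 dendritic cell, 15 fibroblast and stromal, 14 lymphocyte, and 9 erythroid, mast cell and megakaryocyte markers lay between 4.52 and 5.37 on these arrays, around the median of genes and not far above the 4.26 of probe sets without a gene name. Single members were brighter: the highest lymphocyte marker averaged 10.6 in M-CSF and 10.23 with FSL-1 + nutlin-3a. The highest dendritic cell marker averaged 8.8 and 8.94, and the highest neutrophil marker 8.05 and 8.39. Calls in these 5 lists were few: S100a8 and Mmp8 rose in the neutrophil list, Ly75 rose and Kmo fell in the dendritic cell list, Pdgfrb rose in the fibroblast list and Epor fell in the erythroid list, while no lymphocyte marker was called. Ly75 and Pdgfrb lost their calls without any single one of the arrays of the main comparison, in the fit on those 4 arrays and with the replicate block. The neutrophil mean was 5.21 and 5.19 with FSL-1 + nutlin-3a against 4.82 and 4.88 in M-CSF, and its part in the values of S100a8 and Mmp8 below was not tested. Over that whole list 2 of 15 rose and none fell, with a median change of 0.17.

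A gene is called here when its adjusted p was under 0.05 (limma, Benjamini-Hochberg over all 22180 genes), and rose and fell are used of called genes. Between FSL-1 + nutlin-3a and M-CSF, 2110 genes were called (9.51%). Of these 1015 rose (4.58%) and 1095 fell (4.94%). Changes over 2-fold numbered 270 upward and 356 downward, and changes over 4-fold 51 and 69. The rises reached further than the falls: 19 genes rose and 13 fell over 8-fold. The median change over all genes was 0.02, and the 2 groups lay apart with no overlap in 51.5% of genes. Each group has only 2 arrays: of the M-CSF arrays, leaving out replicate 1 gave 1158 calls in place of 2110 and leaving out replicate 2 gave 1353. Of the FSL-1 + nutlin-3a arrays, leaving out replicate 1 gave 1197 and leaving out replicate 2 gave 1264. In bulk RNA, a lower level can come from fewer cells that express a gene or from less of its RNA per cell, and the 2 cannot be told apart.

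**Figure D1:**
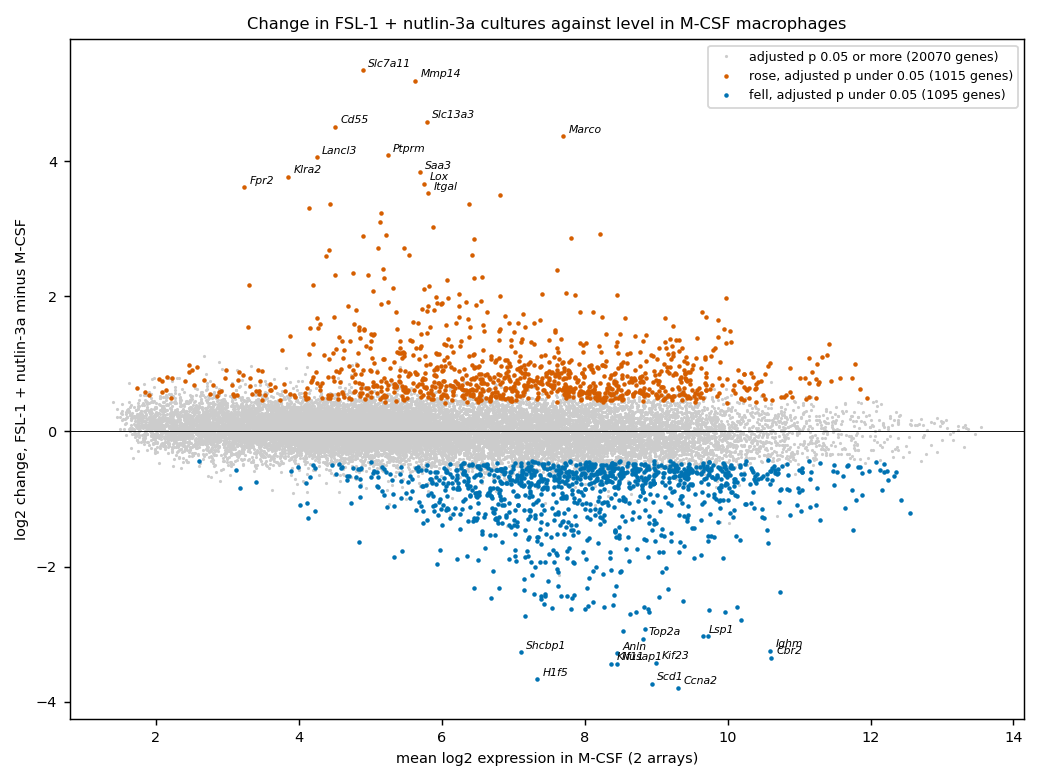
Each point is a gene, with its mean log2 expression on the 2 M-CSF arrays on the horizontal axis and its log2 change in FSL-1 + nutlin-3a cultures on the vertical axis. Orange points rose (1015), blue points fell (1095), grey points were not called, and the 12 highest and 12 lowest changes are labelled. A gene was labelled only where its brighter group lay above the median level, so where the labelled genes lie on the horizontal axis follows in part from that choice.

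Transporters, matrix enzymes and surface receptors led the rises. Slc7a11, which imports cystine in exchange for glutamate, stood at 4.97 and 4.81 on the M-CSF arrays and at 10.50 and 9.97 with FSL-1 + nutlin-3a, a 40.6-fold rise (log2 change 5.34, SE 0.182, adjusted p = 1.09e-05, limma, probe set 17405082). A dimmer probe set of Slc7a11 had a log2 change of 1.81 (adjusted p = 0.0129), so the size of the change depends on the probe set. Mmp14, a membrane-bound metalloproteinase that cuts collagen, rose 36.4-fold from 5.57 and 5.69 to 10.74 and 10.89 (probe set 17300279). The dicarboxylate carrier Slc13a3 rose 23.9-fold, from 5.84 and 5.73 to 10.24 and 10.49. Cd55, which protects cells from complement, rose 22.8-fold from 4.85 and 4.17 to 9.08 and 8.96, and the scavenger receptor Marco 20.6-fold from 7.58 and 7.82 to 12.07 and 12.06. In each of these the 2 groups lay far apart relative to the spread within a group. For Cd55, M-CSF replicate 2 (4.17) lay below the 4.26 median of probe sets without a gene name, so the size of that fold is uncertain.

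The other 7 of the 12 highest rises were the receptor phosphatase Ptprm (17.0-fold), Lancl3 (16.6-fold), the serum amyloid Saa3 (14.3-fold), the lectin-like receptor Klra2 (13.6-fold), the collagen cross-linking enzyme Lox (12.7-fold), the formyl peptide receptor Fpr2 (12.2-fold) and the integrin chain Itgal (11.5-fold). A second, dimmer Lancl3 probe set showed no such rise (log2 change -0.03, adjusted p = 0.93), and Klra2 belongs to a family of near-identical genes, so both stay uncertain as gene assignments. In M-CSF, Klra2 (mean 3.85), Fpr2 (3.23) and Lancl3 (4.25) lay at or below the 4.26 median of probe sets without a gene name, so the size of their folds and their place among the 12 rest on M-CSF values not above that level. Itgal, the alpha chain of LFA-1, lay at 5.89 and 5.73 in M-CSF, 7.30 and 7.30 with FSL-1 alone, and 9.25 and 9.41 with FSL-1 + nutlin-3a. It is the member of the 12 with a called rise against FSL-1 alone (2.03, adjusted p = 0.000224, limma). Slc13a3, Saa3, Lox and Fpr2 were lower than with FSL-1 alone, by differences of -0.88, -1.61, -1.48 and -0.71 (adjusted p = 0.0112, 0.00349, 0.00388 and 0.0401, limma). The call for Fpr2 was lost without any 1 of the 4 arrays of that contrast (adjusted p up to 0.212), and that for Slc13a3 without FSL-1 replicate 1 or FSL-1 + nutlin-3a replicate 1 (up to 0.0939).

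Genes of mitosis and cytokinesis made up 7 of the 12 lowest changes. Ccna2, the cyclin of DNA synthesis and entry into mitosis, fell 13.8-fold, from 9.13 and 9.48 to 5.85 and 5.17 (log2 change -3.79, SE 0.226, adjusted p = 6.26e-05, limma). Scd1, which introduces the double bond of oleate, fell 13.3-fold from 8.95 and 8.93 to 5.09 and 5.31. The linker histone H1f5 followed with -3.66 and belongs to a family of very similar genes. The spindle proteins Nusap1 and Kif11 had changes of -3.43 each, the midzone kinesin Kif23 -3.42, the carbonyl reductase Cbr2 -3.35, the contractile ring protein Anln -3.28, Shcbp1 -3.27, the immunoglobulin heavy chain constant gene Ighm -3.24, the topoisomerase Top2a -3.07 and the leukocyte actin-binding protein Lsp1 -3.03. For Ighm, 6 other probe sets had changes of -0.40 to 0.37 and none was called, so that value rests on 1 probe set. All 12 were lower than with FSL-1 alone, by -1.83 for Cbr2 to -3.07 for Scd1.

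**Figure D2:**
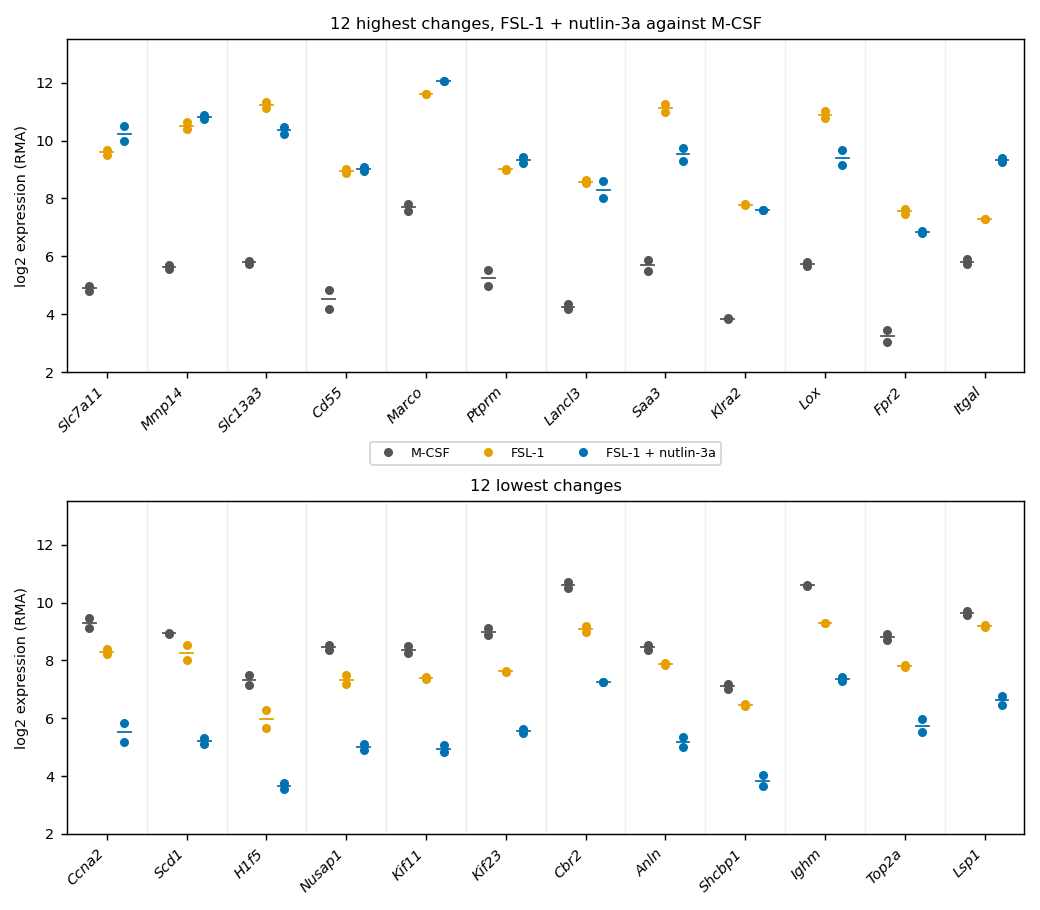
Log2 expression on each array (points) and group means (lines) for the 12 highest changes (upper panel) and 12 lowest changes (lower panel), with M-CSF in grey, FSL-1 in orange and FSL-1 + nutlin-3a in blue. In the upper panel the FSL-1 arrays lie near the FSL-1 + nutlin-3a arrays for most genes, with Itgal clearly lower, and in the lower panel they lie between the other groups.

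Counts over lists of genes with a known role follow, and the plot of list members shows all of them. The shares over all genes to set beside each count were 4.58% that rose and 4.94% that fell against M-CSF. Against FSL-1 alone they were 2.38% higher and 4.12% lower with nutlin-3a. For FSL-1 alone against M-CSF they were 3.91% higher and 2.95% lower. Lists share some genes, and members are not independent of each other. Lists and members were chosen with earlier results of these data known, so the counts are a description and not a test.

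**Figure D3:**
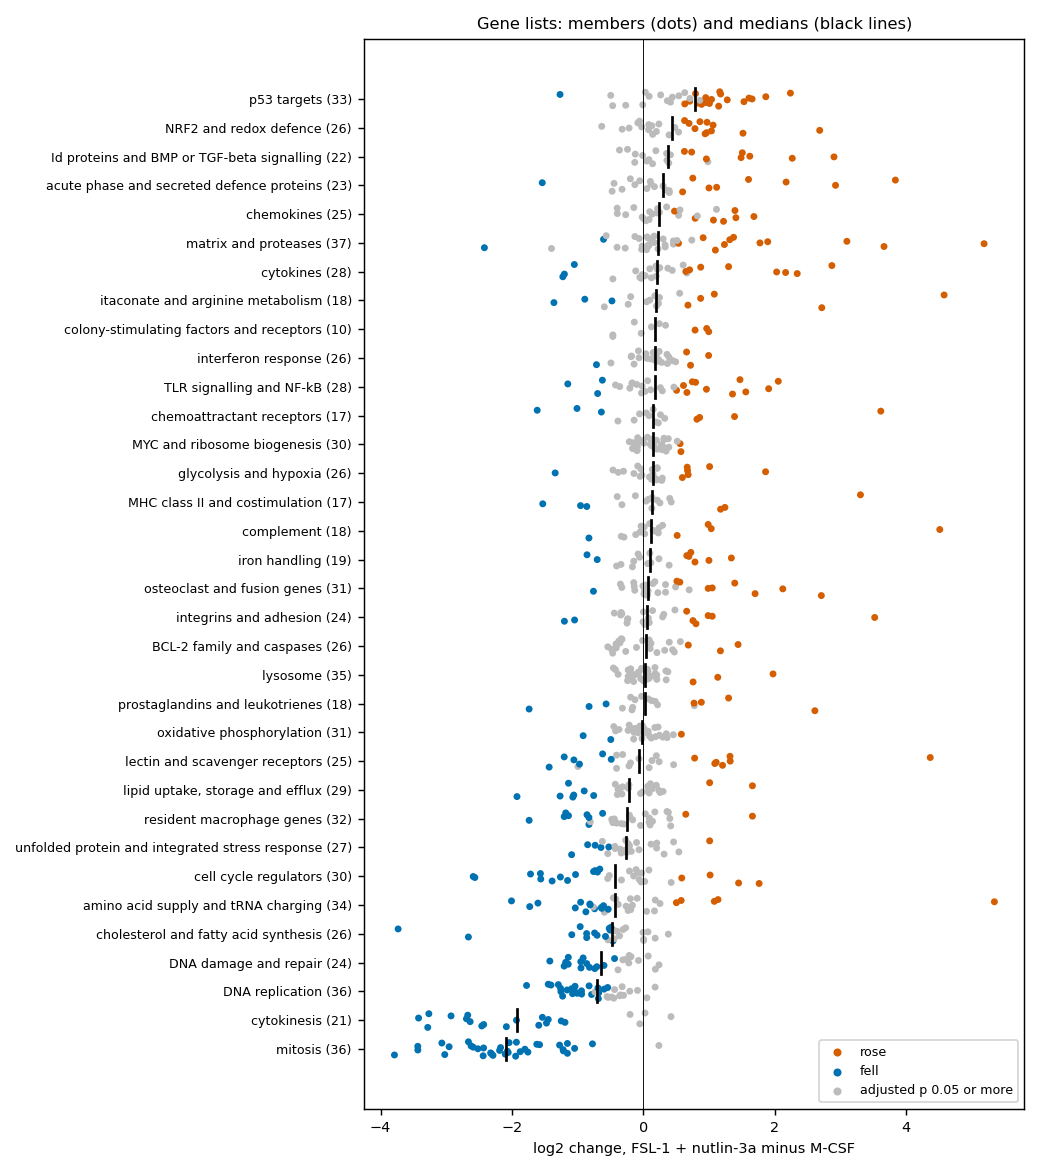
Each dot is a measured member of a list (number measured in brackets) at its log2 change in FSL-1 + nutlin-3a minus M-CSF, orange if it rose, blue if it fell and grey if not called, and the black line is the list's median. Mitosis and cytokinesis have the lowest medians (-2.09 and -1.93) and p53 targets the highest (0.79).

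The listed targets of p53 rose more often than genes at large. Of 33 measured targets, 18 rose and 1 fell, against 4.58% and 4.94% of all genes, and the median change was 0.79 against 0.02. Mdm2, the ubiquitin ligase that degrades p53 and is itself a p53 target, stood at 9.98 and 9.76 in M-CSF, 10.76 and 10.75 with FSL-1 alone, and 11.52 and 11.53 with FSL-1 + nutlin-3a. It rose 3.15-fold (log2 change 1.65, SE 0.122, adjusted p = 0.000165, limma), with the groups apart and the FSL-1 arrays in between. Cdkn1a, which codes for p21, stood at 11.87 and 11.69 in M-CSF, 12.12 and 12.23 with FSL-1 alone, and 12.65 and 12.92 with FSL-1 + nutlin-3a, a 2.01-fold rise (log2 change 1.00, SE 0.139, adjusted p = 0.0036). It was already among the bright genes in M-CSF. Against a 1.5-fold change the rise of Cdkn1a was no longer called, while that of Mdm2 was.

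The highest change among the targets was that of Tnfrsf10b, the death receptor for TRAIL, which went 4.72-fold from 6.18 and 5.97 to 8.40 and 8.22. Phlda3, an inhibitor of Akt, rose 3.05-fold from 7.32 and 7.26 to 8.84 and 8.96. The other targets that rose were Plk3, Eda2r, Gtse1, Sesn2, Zmat3, Aen, Inka2, Ddit4, Pidd1, Ccng1, Dcxr, Tigar, Ei24 and Cdc42bpg, a mix of genes for stress sensing, cell death and metabolism. Sesn1, a stress-induced inhibitor of mTORC1, was the 1 target that fell, by 1.27 on the log2 scale. Among the 14 targets not called, the values ran from -0.50 for Ppm1d to 0.86 for Fas, both named here for their place in the order. Leaving out each of the 4 arrays in turn left 15 to 20 targets that rose and 1 that fell.

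Between FSL-1 with and without nutlin-3a, 1441 genes were called (6.5%), 528 higher (2.38%) and 913 lower (4.12%) with nutlin-3a. That total rests heavily on each array, with 362 and 352 calls when FSL-1 replicate 1 or 2 was left out, and 582 and 627 when replicate 1 or 2 of the combination was. Among p53 targets 16 of 33 were higher and 1 was lower, with a median difference of 0.55. Leaving out FSL-1 replicate 1 or 2 left 4 and 10 of the 16 as a count, and leaving out replicate 1 or 2 of the combination left 8 and 10. Mdm2 differed by 0.77 (adjusted p = 0.0113), Cdkn1a by 0.61 (0.0431), Tnfrsf10b by 1.11 (0.0059) and Phlda3 by 1.28 (0.0012, limma). The calls of Mdm2 and Cdkn1a were lost without any 1 of the 4 arrays (adjusted p up to 0.0901 and 0.222), and that of Tnfrsf10b without FSL-1 replicate 1 (0.0536), although each difference stayed above 0. Against M-CSF, FSL-1 alone had values of 0.88 for Mdm2 (adjusted p = 0.00566), 0.40 for Cdkn1a (0.148), 1.13 for Tnfrsf10b (0.00484) and 0.33 for Phlda3 (0.157). Over the whole list, FSL-1 alone stood above M-CSF in 8 of 33 targets and below in 1, with a median of 0.01. The shares over all genes were 3.91% and 2.95%. These contrasts share arrays with the main comparison.

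**Figure D4:**
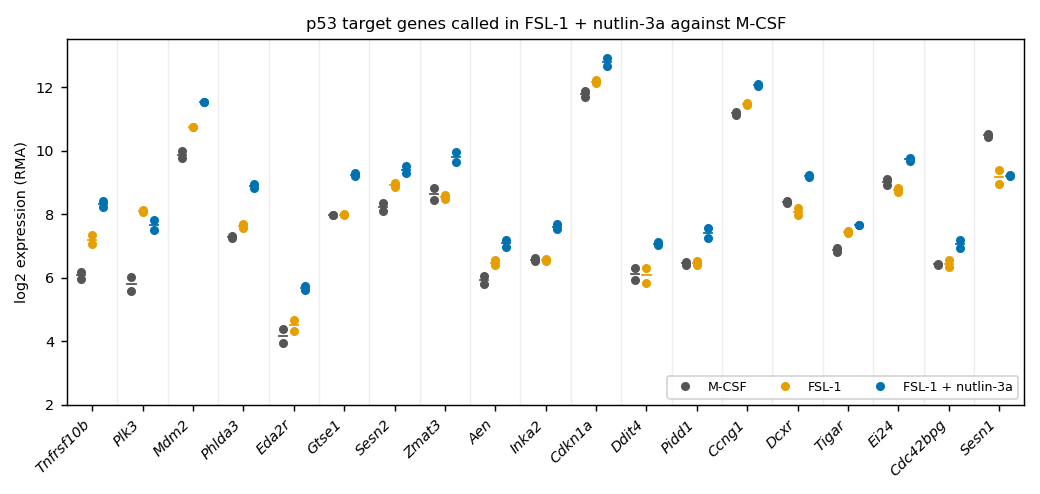
Log2 expression on each array (points) and group means (lines) of the 19 p53 targets called in the main comparison, ordered by their change. The FSL-1 + nutlin-3a arrays (blue) lie above the M-CSF arrays (grey) for 18 targets and below them for Sesn1, and Plk3 is the 1 of the 19 whose FSL-1 mean (orange) lies above that of M-CSF and of FSL-1 + nutlin-3a.

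The promoters of 2 called p53 targets are shown, picked for small p among those with a p53 half-site in the 250 bases before their RefSeq start site (build GRCm38.p6). The windows are chr10:117710759-117711008 on the minus strand for Mdm2 and chr3:105705208-105705457 on the plus strand for Inka2, written 5′ to 3′ with the half-site in capitals.
Mdm2: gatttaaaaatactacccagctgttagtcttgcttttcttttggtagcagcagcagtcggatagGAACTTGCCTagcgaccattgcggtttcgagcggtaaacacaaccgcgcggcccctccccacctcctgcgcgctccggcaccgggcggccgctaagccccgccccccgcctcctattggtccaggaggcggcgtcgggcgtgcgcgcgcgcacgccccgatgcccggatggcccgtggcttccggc
Inka2: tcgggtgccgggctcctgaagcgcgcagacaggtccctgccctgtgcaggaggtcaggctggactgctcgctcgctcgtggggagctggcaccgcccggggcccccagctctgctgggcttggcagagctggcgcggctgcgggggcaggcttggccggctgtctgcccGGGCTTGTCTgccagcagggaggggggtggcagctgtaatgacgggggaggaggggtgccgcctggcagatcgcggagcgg
The half-site starts 186 bases before the start site of Mdm2 and 81 before that of Inka2, which codes for an inhibitor of the kinase Pak4 and rose from 6.62 and 6.52 to 7.68 and 7.54. Of the 18 targets that rose, 15 had a window, and 6 of them (40%) held a half-site on either strand, against 7.56% of 16990 measured genes with a window. Over all listed targets, called or not, the count was 9 of 25 with a window (36%), and the 1 that fell held a half-site too. The share is thus not particular to the targets that rose. The best known p53 elements of Mdm2 lie in its first intron, outside this window. A match in these letters is a description and not a bound site.

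Mitosis and cytokinesis genes fell nearly as a whole. Of 36 measured mitosis genes 35 fell and none rose, with a median change of -2.09, and of 21 cytokinesis genes 17 fell and none rose, with a median of -1.93, against 4.94% of all genes that fell. Kif11, the motor that pushes the spindle poles apart, stood at 8.26 and 8.49 in M-CSF, 7.34 and 7.44 with FSL-1 alone, and 5.06 and 4.82 with FSL-1 + nutlin-3a, a 10.8-fold fall (log2 change -3.43, SE 0.14, adjusted p = 1.73e-05, limma). Nusap1, which bundles spindle microtubules, went from 8.36 and 8.53 through 7.18 and 7.49 to 5.12 and 4.91. Nuf2, part of the kinetochore complex that grips microtubules, went from 8.50 and 8.57 through 7.84 and 7.70 to 5.64 and 5.52. In these genes all 3 groups lay apart, M-CSF highest and FSL-1 + nutlin-3a lowest. The 1 mitosis gene not called was the securin Pttg1, with a change of 0.24 (adjusted p = 0.359).

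In the cytokinesis list, Kif23, a motor of the central spindle, went from 8.88 and 9.11 in M-CSF to 5.50 and 5.64 with FSL-1 + nutlin-3a. Anln, which links the contractile ring to the membrane, went from 8.37 and 8.55 to 5.36 and 5.00, and Shcbp1, a midbody protein, from 7.02 and 7.19 to 4.03 and 3.65. The 4 members not called were the small GTPase Rhoa (-0.20) and the membrane scission factors Tsg101 (0.02), Chmp4b (-0.05) and Pdcd6ip (0.42), genes that also work outside cell division. The counts moved little without any 1 of the 4 arrays, with 34 to 35 mitosis genes and 17 cytokinesis genes that fell.

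The falls were deeper than with FSL-1 alone. Against FSL-1 alone, 32 of 36 mitosis genes and 16 of 21 cytokinesis genes were lower with nutlin-3a, with median differences of -1.47 and -1.11. Kif11 differed by -2.45 (adjusted p = 0.000206), Nusap1 by -2.32 (0.000274), Nuf2 by -2.19 (0.000179), Kif23 by -2.05 (0.000256) and Anln by -2.68 (0.000196, limma). Without FSL-1 replicate 2 the counts were 24 and 10, and without FSL-1 replicate 1 they were 25 and 12. FSL-1 alone had median changes of -0.66 and -0.65 from M-CSF in the 2 lists, with 21 and 12 members called lower (2.95% of all genes were).

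Promoters of 3 genes that fell are shown, picked for small p among called members that hold a CHR, searched as TTTGAA on both strands. Kif11 and Ect2 also hold a CCAAT box, searched as CCAAT on both strands, which played no part in the choice. The windows are the 250 bases before the RefSeq start site in GRCm38.p6: chr19:37376132-37376381 on the plus strand for Kif11, chr4:117178773-117179022 on the minus strand for Kif2c, and chr3:27153879-27154128 on the minus strand for Ect2. They are written 5′ to 3′ with both motifs in capitals, where TTCAAA and ATTGG are the motifs read from the opposite strand.
Kif11: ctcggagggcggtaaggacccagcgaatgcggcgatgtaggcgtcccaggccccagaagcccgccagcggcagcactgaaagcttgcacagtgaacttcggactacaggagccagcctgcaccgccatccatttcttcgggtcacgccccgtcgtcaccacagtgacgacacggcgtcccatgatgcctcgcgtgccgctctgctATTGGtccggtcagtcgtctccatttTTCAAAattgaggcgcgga
Kif2c: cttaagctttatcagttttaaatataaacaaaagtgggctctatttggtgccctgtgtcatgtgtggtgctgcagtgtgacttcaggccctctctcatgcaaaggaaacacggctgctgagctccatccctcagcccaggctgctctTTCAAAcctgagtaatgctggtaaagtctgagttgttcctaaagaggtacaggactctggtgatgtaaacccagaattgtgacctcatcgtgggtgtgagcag
Ect2: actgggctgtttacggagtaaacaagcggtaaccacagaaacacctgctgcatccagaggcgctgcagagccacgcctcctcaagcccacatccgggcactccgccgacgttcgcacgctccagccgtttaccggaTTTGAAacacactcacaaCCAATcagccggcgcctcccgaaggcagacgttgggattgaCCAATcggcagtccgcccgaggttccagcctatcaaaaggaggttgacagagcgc
The CHR starts 19 bases before the start site of Kif11, 103 before that of Kif2c and 114 before that of Ect2. Kif2c, a kinesin that shortens microtubules at centromeres, fell from 8.03 and 8.19 to 5.52 and 5.66, and Ect2, the exchange factor that activates RhoA at the cell equator, from 9.63 and 9.84 to 7.08 and 7.11. Of the 52 mitosis and cytokinesis genes that fell, 42 had a window. A CHR was found in 16 of the 42 (38.1%), against 16.1% of the 16990 measured genes with a window, and a CCAAT box in 28 (66.7%) against 38.7%. Over all listed mitosis and cytokinesis genes, called or not, 17 of 47 with a window held a CHR (36.2%) and 28 a CCAAT box (59.6%). Among the p53 targets that rose, 10 of 15 held a CCAAT box (66.7%) and 1 a CHR (6.67%). The share with a CCAAT box is thus not particular to the genes that fell. A gene was counted if any of its windows held the motif, and the 2 motifs may share an end base.

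Regulators of the cell cycle moved both ways. Of 30 measured, 13 fell and 4 rose, with a median of -0.43. Cdkn3, a phosphatase of cyclin-dependent kinases, fell 6.02-fold from 8.14 and 8.40 to 5.71 and 5.66. Cdkn2c, an inhibitor of Cdk4 and Cdk6, fell 5.92-fold from 8.29 and 8.51 to 6.06 and 5.60, so these inhibitors went down with the mitosis genes while Cdkn1a went up. Foxm1, a transcription factor for mitosis genes, fell 2.96-fold from 7.17 and 7.26 to 5.64 and 5.66. The others that fell were E2f7, E2f8, Rbl1, Lin9, Mybl2, Cdk2, Cdkn1b, Cdkn2d, Cdc25b and Wee1.

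The 4 regulators that rose were the D-type cyclins Ccnd1 and Ccnd2, the transcription factor E2f3 and the inhibitor Cdkn2b. Ccnd1, which starts the cycle in response to growth factors, stood at 9.10 and 10.17 in M-CSF and 11.34 and 11.46 with FSL-1 + nutlin-3a, a 3.39-fold rise (log2 change 1.76, SE 0.293, adjusted p = 0.00834, limma). The M-CSF arrays differed by over a log2 unit there, and the call was lost without FSL-1 + nutlin-3a replicate 2, without which 2 regulators rose in place of 4. It was also lost with trend and robust variance estimation and when tested against a 1.5-fold change. Myc, a growth regulator, stood at 6.66 and 7.50 in M-CSF, 9.11 and 9.10 with FSL-1 alone, and 7.27 and 7.66 with FSL-1 + nutlin-3a. Its groups overlapped in the main comparison (0.39, adjusted p = 0.427). Against FSL-1 alone Myc was lower by 1.64 (log2 difference -1.64, adjusted p = 0.0114), a call that held only without FSL-1 + nutlin-3a replicate 2 when arrays were left out (adjusted p up to 0.0808).

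DNA replication genes fell less steeply. Of 36 measured, 22 fell and none rose, with a median of -0.71. Rrm1 and Rrm2, the subunits of ribonucleotide reductase, fell 3.43-fold and 2.65-fold, from 8.82 and 9.38 to 7.47 and 7.17 and from 6.72 and 7.21 to 5.61 and 5.51. Tyms, which makes thymidylate, fell 2.73-fold. Members of the Mcm helicase (Mcm2, Mcm3, Mcm4, Mcm5, Mcm7 and Mcm10) and polymerase subunits (Pola1, Pole and Pold1) were among the others that fell. Of 24 DNA damage and repair genes, 14 fell and none rose, with a median of -0.65. H2ax, the histone marked at breaks, fell 2.68-fold from 9.41 and 9.60 to 8.26 and 7.90, the helicase Brip1 fell 2.31-fold, and Fanci, of the crosslink repair pathway, 1.94-fold. These 2 counts depend on single arrays: leaving out M-CSF replicate 2 gave 13 replication genes in place of 22, and leaving out replicate 1 or 2 of the combination gave 14 and 12. For repair genes the 14 became 9 when either M-CSF array was left out and 8 when replicate 2 of the combination was.

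Genes of the TLR and NF-kB pathway rose in part, inhibitors of the pathway among them. Of 28 measured, 11 rose and 3 fell, against 4.58% and 4.94% of all genes, with a median of 0.18. Tlr2 itself stood at 7.86 and 7.63 in M-CSF and 8.36 and 8.36 with FSL-1 + nutlin-3a, a 1.53-fold rise (adjusted p = 0.023, limma), a call lost without M-CSF replicate 2 or either array of the combination. Tlr6, its partner, did not pass (7.61 and 7.62 against 7.50 and 7.53, adjusted p = 0.651). Tnip3, an inhibitor of NF-kB, rose 4.15-fold from 7.64 and 7.85 to 9.88 and 9.71. Nfkbiz, a nuclear IkB protein that allows secondary response genes, rose 3.75-fold from 6.05 and 5.95 to 8.05 and 7.77, and Irak3, which blocks signalling by IRAK kinases, 2.95-fold from 9.33 and 9.14 to 10.82 and 10.77. The others that rose were Irak2, Nfkbia, Nfkbie, Tnfaip3, Tnip1, Bcl3 and Zc3h12a, and those that fell were Tlr7, the co-receptor Cd14 and the ligase Traf6, of which Cd14 was not called without M-CSF replicate 2 or FSL-1 + nutlin-3a replicate 2. The 11 became 6 without FSL-1 + nutlin-3a replicate 2. Tnip3, Nfkbiz and Irak3 differed from FSL-1 alone by -0.22, 0.15 and -0.18, with adjusted p of 0.393, 0.619 and 0.452.

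Of 28 cytokine and mediator genes, 8 rose and 3 fell, against 4.58% and 4.94% of all genes. With nutlin-3a, 6 of the 28 were lower than with FSL-1 alone and 2 were higher, with a median difference of -0.09. Tnf rose 7.30-fold, from 7.55 and 8.08 in M-CSF to 10.62 and 10.74, with FSL-1 alone at 9.89 and 10.02 (log2 change 2.87, SE 0.178, adjusted p = 7.66e-05, limma). Il1a, an alarmin, rose 5.07-fold from 4.60 and 4.91 to 7.09 and 7.10, with FSL-1 alone at 6.21 and 6.44. Its difference from FSL-1 alone (0.77, adjusted p = 0.0227) was called on all arrays and lost without any 1 of 4 (up to 0.161), and that of Tnf was not called (0.73, adjusted p = 0.0537). Il1f9, the gene of interleukin-36 gamma, rose 4.48-fold from 3.26 and 3.35 to 5.74 and 5.20. Its M-CSF values lay below the 4.26 median of probe sets without a gene name, so the size of that fold is uncertain. The others that rose were Il1rn, Il23a, Inhba, Pdgfb and Ptgs2, and those that fell were Il18, Vegfa and Gdf3. Il6, Il1b and Il10, standard readouts of macrophage activation, had changes of 0.44, 0.66 and 0.03 (adjusted p = 0.0566, 0.0703 and 0.941) at low levels, with Il6 at 2.83 and 2.77 against 3.32 and 3.16.

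Chemokines rose in 7 of 25 cases and fell in none, against 4.58% and 4.94% of all genes. The monocyte and T cell attractants Ccl6, Ccl4 and Cxcl16 rose 3.21-fold, 2.65-fold and 2.63-fold, from 9.04 and 9.22 to 10.68 and 10.94, from 8.52 and 8.89 to 10.04 and 10.18, and from 10.07 and 9.67 to 11.20 and 11.33. Ccl2, Ccl3, Ccl12 and Cxcl14 also rose. Against FSL-1 alone, 7 of 25 chemokines were lower with nutlin-3a and 1 was higher, and the count of 7 became 4 without either FSL-1 array. Of 17 chemoattractant receptors, 4 rose and 3 fell. Fpr2, which senses formylated bacterial peptides, went from 3.44 and 3.02 to 6.82 and 6.87, while Gpr183, a receptor for oxysterols, fell 3.07-fold and Ptafr, the receptor for platelet-activating factor, 2.02-fold. Without FSL-1 + nutlin-3a replicate 1 only 1 of these receptors rose.

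Secreted defence proteins rose in 8 of 23 cases and fell in 1. Saa3 went from 5.87 and 5.51 to 9.31 and 9.74, with FSL-1 alone at a mean of 11.14 ± 0.195 (SD, n = 2). Pla2g7, which hydrolyses platelet-activating factor, rose 7.59-fold from 8.30 and 8.12 to 11.23 and 11.04. S100a8, a subunit of calprotectin, rose 4.51-fold from 4.49 and 3.90 to 6.60 and 6.13. Its M-CSF mean (4.19) lay below the 4.26 median of probe sets without a gene name, so that fold is uncertain in size. S100a4, a calcium-binding protein of motile cells, fell 2.91-fold from 10.03 and 10.20 to 8.62 and 8.53. S100a4 was not called with FSL-1 alone (0.25, adjusted p = 0.295) and was lower by -1.79 in the test against FSL-1 (adjusted p = 0.000316, limma). Interferon response genes rose in 3 of 26 cases and fell in 1, against 4.58% and 4.94% of all genes, with a median of 0.18. Those that rose were Oas3 (1.99-fold), Bst2 (1.64-fold) and Usp18. Cmpk2 fell 1.64-fold, a call lost without M-CSF replicate 1 or either array of the combination.

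Receptors on the macrophage surface changed in both directions. Of 25 lectin and scavenger receptors, 7 rose and 6 fell, with a median of -0.07. Marco, which binds bacteria and particles, lay at 11.63 and 11.60 with FSL-1 alone, close to its level with FSL-1 + nutlin-3a (difference 0.45, adjusted p = 0.0799). The lectins Clec4d, Clec4n, Clec4a1 and Clec7a, the scavenger receptor Msr1 and the Fc receptor Fcgr4 also rose. Mrc1, the mannose receptor, fell 2.31-fold from 12.53 and 12.58 to 11.42 and 11.29, and Cd5l, a secreted scavenger protein of tissue macrophages, 2.70-fold from 9.62 and 9.43 to 8.24 and 7.94. Clec4a3, Stab1, Fcgr1 (not called without M-CSF replicate 1) and Fcgr2b fell as well, and without M-CSF replicate 1 the 6 that fell became 2. Of 32 genes typical of resident macrophages, 8 fell and 2 rose, with a median of -0.25. Leaving out either M-CSF array or replicate 2 of the combination gave 1 that rose in place of 2. Those that fell were Maf, C1qa, Mrc1, Stab1, Hpgd, Slc40a1, Pparg and Tgfbi, the last by 2.27-fold from a mean of 11.03 ± 0.037 (SD, n = 2) to 9.89 and 9.80. Nr1h3, the liver X receptor alpha, rose 3.16-fold from 6.31 and 6.42 to 8.04 and 8.01, and was above FSL-1 alone (7.01 and 7.0) by 1.02 (adjusted p = 0.00235).

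Of 17 genes for MHC class II and costimulation, 3 rose and 3 fell. Tnfsf4, the OX40 ligand, rose 9.88-fold, from 3.84 and 4.44 in M-CSF to 7.48 and 7.41, with FSL-1 alone at 6.30 and 6.21. Its M-CSF mean (4.14) lay below the 4.26 median of probe sets without a gene name, so the size of the fold is uncertain. The difference of 1.19 from FSL-1 alone (adjusted p = 0.0113) lost its call without any 1 of the 4 arrays (up to 0.0906). Cd274, which codes for PD-L1, rose 2.26-fold from 8.09 and 7.86 to 9.0 and 9.30, and Cd80 rose too. The class II chain H2-Aa fell 2.89-fold from 7.01 and 6.47 to 5.22 and 5.19, and Cd86 and Cd83 fell. Of 18 complement genes, Cd55, Cd59a, C1ra and the receptor chain Itgax rose and C1qa fell, a fall that was not called once any of the 4 compared arrays was removed. Among 10 colony-stimulating factors and receptors, the GM-CSF receptor genes Csf2ra, Csf2rb and Csf2rb2 rose 1.99-fold, 1.73-fold and 1.95-fold. The last 2 genes are near-identical copies whose probes may not separate them, Csf2rb was not called without M-CSF replicate 1, Csf2rb2 was not called without M-CSF replicate 2, and neither was called without FSL-1 + nutlin-3a replicate 2, so the 3 became 1 there. Csf1r, the M-CSF receptor, stood at 12.07 and 11.78 against 11.45 and 11.48 and was not called (-0.47, adjusted p = 0.0679).

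Matrix and protease genes held some of the highest rises. Of 37 measured, 11 rose and 2 fell. After Mmp14, the gelatinase Mmp9 rose 8.56-fold, from 5.07 and 5.21 in M-CSF to 8.13 and 8.35, with FSL-1 alone at 7.53 and 7.34, and Lox rose from 5.82 and 5.68 to 9.67 and 9.16. Mmp2, Mmp8, Mmp12, Mmp19, Adam8, Tgm2, Plaur and Sulf2 also rose, while the laminin chain Lama3 and the collagen hydroxylase Plod1 fell. Of 24 integrin and adhesion genes 6 rose and 2 fell. Beside Itgal, Itgav, which pairs with several beta chains to bind matrix, rose 2.07-fold from 8.82 and 8.90 to 10.03 and 9.79, and Itgax, Itga5, Icam1 and Pecam1 rose, whereas the laminin receptor chain Itga6 fell 2.07-fold and Itga4 fell.

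Since FSL-1 cultures are described as giant cells, genes of osteoclasts and of cell fusion were followed. Of 31 measured, 8 rose and 1 fell, with a median of 0.07. Acp5, the acid phosphatase of osteoclasts known as TRAP, rose 6.54-fold, from 4.86 and 5.35 in M-CSF to 7.76 and 7.87, and stood at 7.59 and 7.59 with FSL-1 alone. The transcription factor Fos rose 4.35-fold from 5.12 and 5.53 to 7.24 and 7.65, and the surface glycoprotein Cd200 3.25-fold from 4.58 and 4.40 to 6.27 and 6.12. M-CSF values of Cd200 lay not far above the 4.26 median of probe sets without a gene name, so the size of its fold is uncertain. Fosl2, Tnfrsf11a, Itgav, Src and Tyrobp rose, and Cd9 fell. Tyrobp, an adaptor of activating receptors, lost its call without any 1 of the 4 arrays. The fusion proteins Dcstamp and Ocstamp did not differ beyond their spread: Dcstamp lay at 5.20 and 5.52 against 5.43 and 5.33, Ocstamp at 5.36 and 5.65 against 5.44 and 5.66, and the groups overlapped in both (adjusted p = 0.967 and 0.9). The sign of the change in Dcstamp (0.02) turned when arrays were scaled again or centred (-0.02 and -0.01).

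Genes of the unfolded protein response and of the integrated stress response differed in their counts against the 2 other groups. Against M-CSF, 5 of 27 fell and 1 rose, with a median of -0.26. Against FSL-1 alone, 16 of 27 were lower with nutlin-3a and none was higher, with a median difference of -0.76, and FSL-1 alone stood above M-CSF in 14 (3.91% of all genes did) and below in none, at a median of 0.56. Nupr1, a stress-induced nuclear protein, stood at 7.69 and 7.67 in M-CSF, 8.76 and 8.75 with FSL-1 alone, and 6.90 and 6.99 with FSL-1 + nutlin-3a, so the combination lay lowest and FSL-1 alone highest with no overlap. Pdia6, a disulfide isomerase of the endoplasmic reticulum, went from 10.64 and 10.87 through 10.96 and 11.02 to 9.95 and 9.86, and Asns, Hsp90b1 and Herpud1 were the others that fell. Vldlr, a lipoprotein receptor, rose 2.01-fold. The 16 became 11 to 13 without any 1 of the 4 arrays of that contrast, and the 5 against M-CSF became 2 without M-CSF replicate 2 or either array of the combination.

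Amino acid transporters, serine and one-carbon enzymes and tRNA synthetases had a like pattern. Against M-CSF 13 of 34 fell and 5 rose (median -0.44). Against FSL-1 alone 23 were lower with nutlin-3a and 2 higher (median -0.93), while FSL-1 alone had 11 above M-CSF and none below. Psat1, of serine synthesis, stood at 6.38 and 6.82 in M-CSF, 7.37 and 7.12 with FSL-1 alone and 4.84 and 4.91 with FSL-1 + nutlin-3a. Slc38a2, a carrier of small neutral amino acids, went from 10.11 and 10.24 in M-CSF to 8.65 and 8.49, with FSL-1 alone at 10.24 and 10.14, so the FSL-1 arrays overlapped those of M-CSF while the combination lay below both. The others that fell were the carriers Slc7a1, Slc7a5 and Slc1a5, the enzymes Shmt2, Mthfd2 and Mthfd1l, and the synthetases Cars, Lars, Mars1, Nars and Sars. Slc7a11 went the other way, together with its heavy chain Slc3a2 and with Slc7a2, Slc7a6 and Slc7a8. The 13 became 6 without M-CSF replicate 2 or FSL-1 + nutlin-3a replicate 2, and the 5 became 3 without FSL-1 + nutlin-3a replicate 1 or either M-CSF array. The 23 became 14 without FSL-1 replicate 1.

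Redox defence genes of the NRF2 pathway rose in 11 of 26 cases and fell in none, with a median of 0.43. FSL-1 alone also stood above M-CSF in 11 and below in none, with a median of 0.38. With nutlin-3a, 4 were lower than with FSL-1 alone and 2 were higher, with a median difference of 0. Gsta3, a glutathione transferase, rose 6.42-fold, from 4.52 and 4.33 in M-CSF to 7.01 and 7.21, and lay at 7.14 and 7.14 with FSL-1 alone. Its M-CSF values lay not far above the 4.26 median of probe sets without a gene name, so the size of that fold is uncertain. Gclm, a subunit of the enzyme that starts glutathione synthesis, rose 2.86-fold from 10.00 and 9.91 to 11.43 and 11.52. Gsr, which regenerates glutathione, rose 2.05-fold from 9.34 and 9.43 to 10.41 and 10.44. Hmox1, Nqo1, Gclc, Srxn1, Txnrd1, Taldo1, Sod2 and Gpx1 rose too. Leaving out 1 of the 4 compared arrays gave 8 to 10 that rose in place of 11, and 1 that fell without replicate 2 of the combination.

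In glycolysis and hypoxia, 6 of 26 genes rose and 1 fell. FSL-1 alone stood above M-CSF in 11 and below in none. With nutlin-3a, 8 were lower than with FSL-1 alone and none was higher, with a median difference of -0.29. Pfkfb3, which drives glycolytic flux, rose 3.63-fold from 6.29 and 6.20 to 7.86 and 8.35, and the glucose transporter Slc2a1 2.01-fold from 8.53 and 8.66 to 9.55 and 9.64. With FSL-1 alone, Pfkfb3 lay at 7.51 and 7.63 and Slc2a1 at 10.09 and 10.11. Ndrg1, a stress-responsive gene, fell 2.54-fold from 9.85 and 9.89 to 8.71 and 8.34, with FSL-1 alone at 10.29 and 10.33. The 6 became 3 when M-CSF replicate 1 was left out and 2 when replicate 1 of the combination was. Among 18 genes of itaconate and arginine metabolism, 5 rose and 3 fell. Acod1, which makes itaconate, rose 6.57-fold, from 5.46 and 5.49 in M-CSF to 8.34 and 8.04, against 10.09 and 9.96 with FSL-1 alone. Its difference of -1.84 from FSL-1 alone was called (adjusted p = 0.000409, limma). Gatm, of creatine synthesis, fell 2.57-fold. The 5 became 3 without M-CSF replicate 1 or FSL-1 + nutlin-3a replicate 2.

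Of 30 MYC and ribosome biogenesis genes, Nop2 and Bop1 rose 1.47-fold and 1.49-fold and none fell, and both calls were absent without M-CSF replicate 1 or FSL-1 + nutlin-3a replicate 1. Among 31 oxidative phosphorylation genes, Cycs rose 1.49-fold and Cox6a2 and Atp5a1 fell 1.89-fold and 1.41-fold. In both lists the counts were near the shares over all genes, 4.58% that rose and 4.94% that fell. Cox6a2, a respiratory subunit typical of muscle, stood at 6.45 and 6.49 in M-CSF, 8.51 and 8.59 with FSL-1 alone and 5.48 and 5.62 with FSL-1 + nutlin-3a, a difference of -3.0 between the last 2 groups (adjusted p = 0.000119). Atp5a1 was not called without any 1 of the 4 compared arrays, and of those 4 arrays Cycs kept its call only when M-CSF replicate 2 was the one left out.

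Lipid synthesis genes fell in part. Of 26 genes of cholesterol and fatty acid synthesis, 13 fell and none rose, with a median of -0.48. Scd1, already named, lay at 8.01 and 8.54 with FSL-1 alone, and Fads2, a desaturase of polyunsaturated fatty acids, fell 6.34-fold from 9.73 and 10.20 to 7.38 and 7.22, with FSL-1 alone at 9.48 and 9.52. Hmgcs1, an early enzyme of the sterol pathway, fell 2.13-fold from 10.88 and 11.07 to 9.99 and 9.77. The others were Srebf2, Insig1, Stard4, Pmvk, Fdps, Sqle, Lss, Acaca, Fasn and Fads1. Leaving out M-CSF replicate 1 gave 8 in place of 13, and leaving out M-CSF replicate 2 or either array of the combination gave 6. Of 29 genes of lipid uptake, storage and efflux, 7 fell and 2 rose. Abcd2, a peroxisomal carrier, fell 3.79-fold from 8.12 and 7.55 to 5.85 and 5.98, and the receptor Pparg 2.21-fold from 8.19 and 8.25 to 6.96 and 7.21. The cholesterol pumps Abca1 and Abcg1 fell while Nr1h3, a receptor that induces them, rose.

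Of 18 genes for prostaglandins and leukotrienes, 4 rose and 3 fell. Alox5, which starts leukotriene synthesis, rose 6.11-fold, from 6.34 and 6.50 in M-CSF to 9.09 and 8.97, and rose at its dimmer probe set too (log2 change 1.34, adjusted p = 0.000564, limma). Ptges, which makes prostaglandin E, rose 1.84-fold, and Hpgd, which inactivates prostaglandins, fell 3.34-fold from 9.06 and 8.41 to 7.15 and 6.84. Lysosomal genes were bright and mostly not called, with 3 of 35 that rose and none that fell, against 4.58% and 4.94% of all genes. Hgsnat, an enzyme of heparan sulfate breakdown, rose 3.93-fold, from 9.98 and 9.97 in M-CSF to a mean of 11.94 ± 0.080 (SD, n = 2), while FSL-1 alone lay at 9.61 and 9.49, a difference of 2.39 (adjusted p = 0.000124). The protease Ctsh and the sulfatase Arsb rose 2.19-fold and 1.69-fold, the latter a call lost without FSL-1 + nutlin-3a replicate 2. Of 19 iron handling genes 6 rose and 2 fell. The importer Slc11a2 rose 2.53-fold and the haem oxygenase Hmox1 1.72-fold, and the exporter Slc40a1 fell 1.81-fold, from 12.21 and 12.12 to 11.31 and 11.31, with FSL-1 alone lower still at 9.76 and 9.82. The 6 became 3 without M-CSF replicate 1.

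Id proteins, which block basic helix-loop-helix factors, were listed with genes of BMP and TGF-beta signalling. Of the 22 genes in that list 8 rose and none fell, with a median of 0.37. Id3 stood at 5.26 and 5.19 in M-CSF, 5.20 and 5.41 with FSL-1 alone, and 7.51 and 8.74 with FSL-1 + nutlin-3a, a 7.47-fold rise (log2 change 2.90, SE 0.332, adjusted p = 0.00146, limma). Id1 stood at 5.06 and 5.33, 5.38 and 5.24, and 6.96 and 7.96 in the same order, a 4.81-fold rise. Both were high on the FSL-1 + nutlin-3a arrays alone, and those 2 arrays differed by a log2 unit or more. Id2 rose 2.80-fold from 9.88 and 10.19 to 11.40 and 11.64, with FSL-1 alone at 11.10 and 11.04. Smad6, Smad7, Eng, Skil and Smurf1 were the others. Against FSL-1 alone 7 of the 22 were higher with nutlin-3a, which became 2 without either FSL-1 array and 3 without either FSL-1 + nutlin-3a array. Id3 kept its call in that contrast without any 1 of the 4 arrays, and Id1 lost it without FSL-1 replicate 2 (adjusted p = 0.0507). In the list of BCL-2 proteins and caspases, 3 of 26 rose and none fell, against 4.58% and 4.94% of all genes. They were the survival factor Bcl2 (2.25-fold) and the inflammatory caspases Casp4 and Casp1 (2.72-fold and 1.61-fold). Casp1 was not called without M-CSF replicate 1 or either array of the combination. Bbc3 and Pmaip1, death genes known to be induced by p53, had changes of -0.27 and 0.09 and were not called (adjusted p = 0.247 and 0.738). A dimmer Bcl2 probe set had a change of -0.05 (adjusted p = 0.913).

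Some genes called with FSL-1 alone were not called in the main comparison. The 10 named here were the largest among genes called with FSL-1 alone (6.86% of genes), called the opposite way against FSL-1 and not called in the main comparison, a choice that fixes their pattern, so their levels are a description. The chemokine Ccl7 stood at 6.45 and 7.54 in M-CSF, a mean of 11.01 ± 0.0048 (SD, n = 2) with FSL-1 alone, and 7.72 and 7.91 with FSL-1 + nutlin-3a. Csf1, the gene of M-CSF itself, stood at 6.51 and 6.89, 9.72 and 9.72, and 6.25 and 6.22. The prostacyclin receptor Ptgir stood at 6.56 and 6.56, 9.31 and 9.61, and 6.68 and 6.68. All 3 were high on the FSL-1 arrays alone. Calcb, a calcitonin gene-related peptide, and Clec4e, the lectin Mincle that senses mycobacterial glycolipid, had the same order, with Clec4e at 8.71 and 9.01, 11.64 and 11.45, and 8.43 and 8.90. In the other direction, Arrdc3, Plxdc2, the cytokine receptor chain Il12rb2, Rtn4rl1 and the adhesion molecule Cadm1 were low with FSL-1 alone. Il12rb2 went from 8.26 and 8.10 in M-CSF through 6.30 and 6.45 to 7.81 and 7.73. A change not called does not show that a level was back at that of M-CSF: the values of these 10 in the main comparison ran from -0.82 for Arrdc3 to 0.82 for Ccl7, and some were called in it under other settings. Leaving out M-CSF replicate 1 gave a call for Csf1, M-CSF replicate 2 for Ccl7 and replicate 2 of the combination for Rtn4rl1. Csf1, Arrdc3, Il12rb2, Rtn4rl1 and Cadm1 were called with trend and robust variance estimation and when genes under the median level were left out. Against FSL-1 alone, Cadm1 lost its call without any 1 of the 4 arrays of that contrast (adjusted p up to 0.0868). Arrdc3 lost it without FSL-1 replicate 1 or either array of the combination (up to 0.128), Rtn4rl1 without either FSL-1 array or replicate 2 of the combination (up to 0.144), and Plxdc2 without FSL-1 replicate 1 (0.0563).

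Other genes were called with the combination and not with FSL-1 alone, and differed from FSL-1 alone in the same direction. The 10 largest were Id3, Gria3, Id1, Adgb and Crip2 upward and Scd1, Anln, Lsp1, Fads2 and Ube2c downward, also chosen for this pattern. Gria3, a glutamate receptor subunit, stood at 4.19 and 4.57 in M-CSF, 5.10 and 5.09 with FSL-1 alone, and 7.30 and 6.65 with FSL-1 + nutlin-3a. Adgb, a globin relative, stood at 5.67 and 5.84, 6.27 and 6.32, and 7.60 and 8.12, and Crip2, a LIM domain protein, at 5.24 and 4.84, 5.18 and 5.15, and 7.46 and 6.78. Lsp1, which binds actin in migrating leukocytes, stood at 9.59 and 9.72, 9.22 and 9.15, and 6.78 and 6.47, and the mitotic ubiquitin-conjugating enzyme Ube2c at 8.68 and 9.12, 8.36 and 8.34, and 6.65 and 5.82. In these 5 the FSL-1 arrays lay nearer to M-CSF than to the combination. A gene not called with FSL-1 alone may still have moved there, as Anln with -0.60 (adjusted p = 0.0561).

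**Figure D5:**
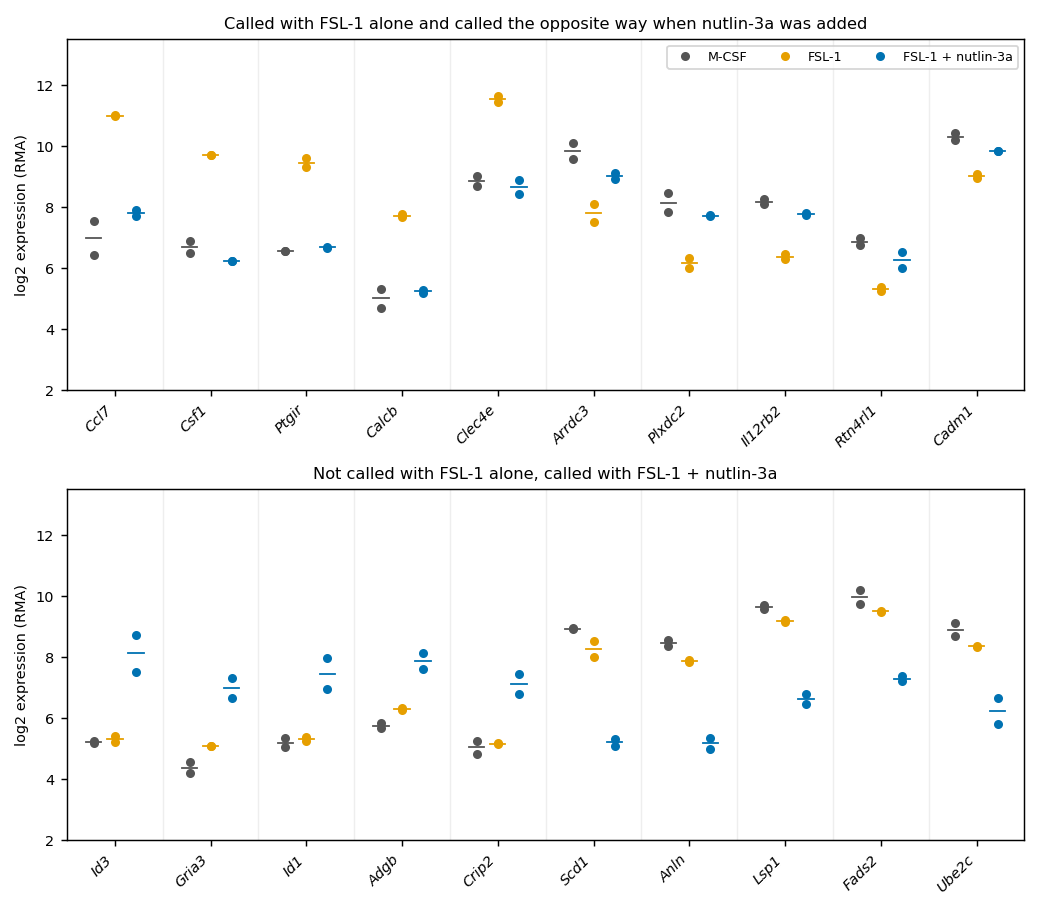
Log2 expression on each array (points) and group means (lines) of the 10 genes called with FSL-1 alone and the opposite way against FSL-1 (upper panel) and the 10 called with FSL-1 + nutlin-3a but not with FSL-1 alone (lower panel), with M-CSF in grey, FSL-1 in orange and FSL-1 + nutlin-3a in blue. In the upper panel orange points stand apart from the other colours, as for Csf1 at 9.72 against 6.22 to 6.89, and in the lower panel blue points do, as for Id3 at 7.51 and 8.74 against 5.19 to 5.41.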

How the data were processed

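Gene expression was measured on 6 Affymetrix arrays, 2 each of M-CSF, FSL-1 and FSL-1 + nutlin-3a cultures. The authors deposited log2 values per probe set, for which the submitters' processing notes name RMA and version 1.4 of Affymetrix Expression Console. RMA puts the arrays on 1 common distribution, so changes are relative to the average gene, and values of different genes are not comparable as amounts. Intensities before RMA were not used here, and precision is limited by how few arrays there are. Of 34390 probe sets, GEO's platform annotation gave 1 gene to 23521, several to 1814 and none to 9055. Where a gene had several probe sets, the one with the highest mean was kept, which left 22180 genes with no filter on level.

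All 6 arrays entered 1 limma fit (limma 3.58.1, R 4.3.3; lmFit and eBayes), which shares the spread between the groups, and p-values were adjusted by Benjamini-Hochberg over all genes for each contrast. The script was tested on simulated data. Genes were named by a rule: the 12 highest and 12 lowest called changes without overlap whose brighter group lay above the median level, up to 3 called members of each list with the smallest p, a set of 10 genes tied to the treatments, and 5 genes per direction for each pattern across the 3 groups. Members listed by name complete a count, and Fas, Ppm1d, Il6, Il1b, Il10, Bbc3, Pmaip1, Kif2c, Ect2 and Inka2 were chosen after their values were seen. The members and lists were chosen with earlier results of these data known.

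Promoter windows were read from RefSeq for GRCm38.p6. A motif search for kappaB in cytokine, chemokine and defence genes that rose matched 1 of 18 with a window (5.56%), over all such genes, called or not, 12 of 56 (21.4%), and over measured genes 9.15%; no such window is printed. Alternatives changed the variance model, scaling, probe set rule, level filter, arrays, replicate block, array weights and smallest change tested. Figures were drawn with matplotlib 3.10.9 under Python 3.11.15.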

Additional observations from a re-analysis of the deposited data

How the results depend on the processing

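With 2 arrays a group, single arrays carry much of the evidence. Leaving out each array in turn gave 1158 to 1529 called genes between FSL-1 + nutlin-3a and M-CSF (574 to 738 rose, 569 to 791 fell), and 352 to 1212 against FSL-1 alone, where the lone array of a group is assumed to vary like the others. With a trend in the variance and robust estimation the counts were 3337 (1548 rose, 1789 fell) and 2658, without genes under the median level 3367 (1537 and 1830) and 2576, and in a test against a 1.5-fold change 370 (158 and 212) and 159. The cause was not tested, except that leaving out dim genes tests fewer genes. The alternatives against FSL-1 alone were chosen after seeing the data. Other settings stayed within 1.5 times of both counts. Whether the replicate numbers pair the arrays is not stated in the labels. The deviations of same-numbered M-CSF and FSL-1 + nutlin-3a arrays correlated at 0.0175. Those of M-CSF and FSL-1 correlated at -0.188, and those of FSL-1 and FSL-1 + nutlin-3a at -0.0248. With 2 arrays a group these values cannot decide it. With the replicate block 1725 and 1005 genes were called. Of 124 named genes called, 110 to 117 kept their call without 1 array and 82 in the 1.5-fold test. Signs turned only for genes that were not called: Dcstamp was -0.02 scaled again, -0.01 centred, and -0.15 to 0.18 as arrays were left out (-0.03 without replicate 1 of the combination). The same range was -0.10 to 0.19 for Ocstamp (-0.06 without replicate 2 of the combination), -0.04 to 0.81 for Myc, -0.07 to 0.54 for Calcb and -0.43 to 0.04 for Clec4e. The lowest values of Dcstamp, Ocstamp, Myc and Calcb came without M-CSF replicate 1, and the highest of Clec4e without replicate 1 of the combination. Values near the 4.26 of probe sets without a gene name limit what falls and dim genes can show.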
